A study of Homo sapiens with 12 samples.

Results

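The 10 genes described here encode transcription factors that steer myeloid blood cells, measured in an acute myeloid leukemia (AML) line. They are SPI1, RUNX1, MYB, GFI1, CEBPA, CEBPB, CEBPD, CEBPE, IRF8 and KLF4. The genes were picked by symbol, not by their values, from the deposited table, where they fill 34 of 100502 transcript rows and 10 of 46639 gene symbols once rows are summed per symbol. All 10 passed the filter on low values and were tested among 10642 protein-coding genes.

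RNA was sequenced from MOLM-13, an established human AML line with an MLL-AF9 fusion, in 12 libraries. They came from cells without drug (untreated) or with 100 nM decitabine (DAC, a nucleoside that traps DNA methyltransferases), 1 µM all-trans retinoic acid (ATRA, the ligand of the retinoic acid receptors) or both (DAC+ATRA), with 3 libraries per group. Per the labels, all groups, untreated cells included, grew with serum and GM-CSF, a cytokine that itself drives myeloid growth, and the medium was changed daily. The methods of the study name serum but no GM-CSF for this line, so whether it was present could not be settled here. The labels give 96 h for untreated and 72 h for every treated library, and 72 h of ATRA, whereas the text on the design has a single harvest at 72 h and the methods of the study add ATRA after the first 48 h, so the true exposure could not be settled here. If the labels hold, each comparison with untreated cells, and the interaction, also sets 72 h against 96 h. Drug and time could then not be told apart there, and words such as raised or lowered state only a direction. Comparisons among the treated groups share the 72 h label. No vehicle-treated library was analysed here. The libraries are technical triplicates of 1 line, so each p-value measures only the spread between these libraries.

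Blood cell identity is set by a small set of factors that act in combination. The ETS factor PU.1 (encoded by SPI1), RUNX1 and the C/EBP leucine zipper proteins open the myeloid programme, MYB keeps progenitors dividing, and the repressor GFI1 and C/EBPε favour granulocytes while IRF8 and KLF4 favour monocytes. In MLL-rearranged AML, progenitor regulators such as MYB stay active and maturation stalls. Retinoic acid receptors act as ligand-controlled transcription factors on genes of this kind, and DAC lowers DNA methylation as cells replicate.

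The 4 members with the largest change against untreated cells were CEBPE, MYB, KLF4 and CEBPB. Their promoters are printed because the DNA methylation that DAC lowers lies mostly on cytosines followed by guanine (CpG). These promoters span a wide range of CpG content. Each line gives the 250 bases before a RefSeq start on GRCh38.p14, 5′ to 3′ on the strand of the gene, with each CG in capitals. The stretches lie at chr14:23119256-23119505 (minus strand) for CEBPE, chr6:135181058-135181307 (plus) for MYB, chr9:107489770-107490019 (minus) for KLF4 and chr20:50190580-50190829 (plus) for CEBPB. Each one ends just before the first base of an annotated transcript (CEBPE-201, MYB-203, KLF4-201 and CEBPB-201), and the CEBPE stretch also lies in an intron of 2 longer non-coding transcripts. MYB-203 itself held at most 2.25 normalised counts in any library. MYB-206 and MYB-221, which held more, start at 135181421 and 135181381. The main MYB row is not in GENCODE release 44, so its start was not placed.
CEBPE: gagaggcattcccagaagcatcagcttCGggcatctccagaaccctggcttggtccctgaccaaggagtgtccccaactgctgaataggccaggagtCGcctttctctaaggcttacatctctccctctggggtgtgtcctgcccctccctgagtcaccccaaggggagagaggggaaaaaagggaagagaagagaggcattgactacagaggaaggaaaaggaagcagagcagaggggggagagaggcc
MYB: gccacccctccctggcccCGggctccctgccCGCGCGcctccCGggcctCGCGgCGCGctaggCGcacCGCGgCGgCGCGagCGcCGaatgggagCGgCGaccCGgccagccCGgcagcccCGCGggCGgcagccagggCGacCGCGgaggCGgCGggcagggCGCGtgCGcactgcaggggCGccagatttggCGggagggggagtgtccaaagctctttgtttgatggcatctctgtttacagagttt
KLF4: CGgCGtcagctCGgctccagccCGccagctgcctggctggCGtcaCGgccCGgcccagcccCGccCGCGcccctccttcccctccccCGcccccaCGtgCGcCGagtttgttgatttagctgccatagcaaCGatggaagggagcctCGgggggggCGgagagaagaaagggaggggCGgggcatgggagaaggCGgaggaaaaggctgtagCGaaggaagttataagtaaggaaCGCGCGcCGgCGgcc
CEBPB: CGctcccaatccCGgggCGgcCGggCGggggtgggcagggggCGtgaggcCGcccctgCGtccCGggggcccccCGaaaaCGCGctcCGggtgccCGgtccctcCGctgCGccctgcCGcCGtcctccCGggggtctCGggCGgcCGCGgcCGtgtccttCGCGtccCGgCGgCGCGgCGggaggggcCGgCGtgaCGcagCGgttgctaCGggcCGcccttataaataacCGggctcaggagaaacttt

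CEBPE had 2 CpGs in these 250 bases, against 34 for MYB, 25 for KLF4 and 38 for CEBPB. Over the full RefSeq window of 300 bases, which runs 50 bases past the start, 8 of the 10 members had 12 windows and SPI1 and CEBPD had none. Among all 35116 such windows the median was 14 CpGs, with quartiles of 4 and 28. The CEBPE window, with 2 CpGs, had more than 11.0% of windows did. The 2 windows of IRF8 held 3 and 9, and neither begins where IRF8-201, its main transcript row, starts. The other 9 member windows all lay above the median. GFI1 windows held 20 to 27, the CEBPB windows 31 and 43, KLF4 33, MYB 35 and RUNX1 40. CEBPA, with 50 CpGs, exceeded 98.7% of windows. DNA methylation itself was not measured in these libraries.

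The hexamer AGGTCA, the core that retinoic acid receptors bind (or its reverse complement TGACCT) was found in 3 of the 12 member windows, namely both IRF8 windows and 1 of GFI1, and in 13.8% of all windows. The IRF8 windows overlap and share a single site, so the members hold 2 distinct sites. The C/EBP motif TTGCNNAA (or TTNNGCAA) was found in 1 of the 12, a GFI1 window, and in 10.5% of all windows. Neither motif occurred in the windows of CEBPE, MYB, KLF4 or CEBPB, which says only that these letters are not in those bases.

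**Figure D1:**
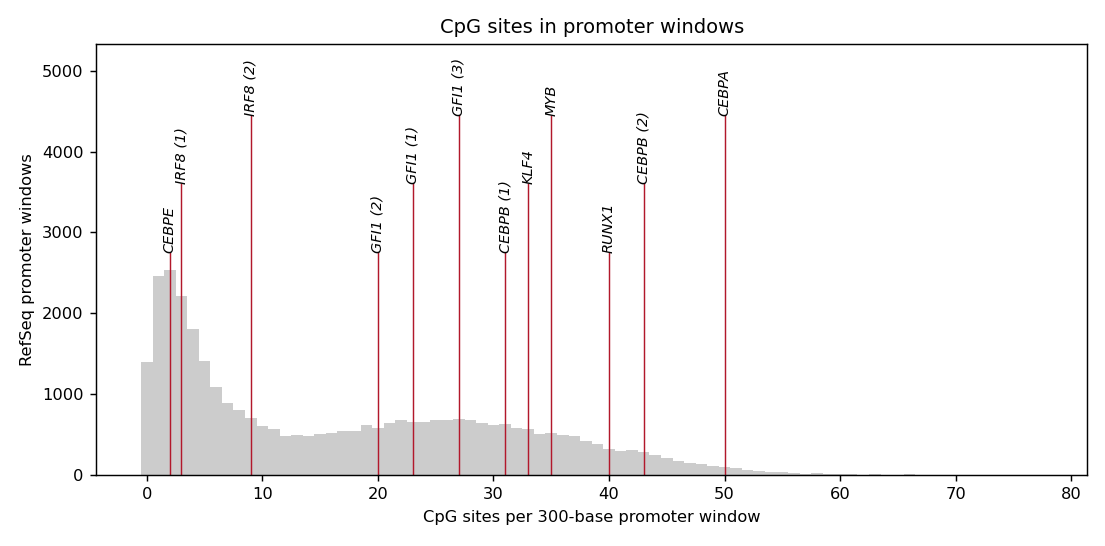
CpG content of member promoters. The bars count all 35116 RefSeq windows of 300 bases by their number of CpGs, and the red lines place the 12 member windows along the same axis, from CEBPE at 2 to CEBPA at 50.

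Library depth was lower in the groups that received DAC. Recovered reads ran from 8.95 to 11.9 M (mega) in the untreated group, 4.67 to 6.95 with DAC, 8.36 to 10.7 with ATRA and 5.61 to 7.16 with both drugs. DAC replicate 3 lay farthest from its group: its root mean square distance from the other two DAC libraries was 0.61 (log2), against 0.35 to 0.53 for the other 11 libraries, so values without it are given where it decides a call. All 7 markers of a monocytic leukemia line were read in every group, but their sum moved between groups. It was 53516 to 65465 normalised counts in untreated, 149449 to 199459 with DAC, 18461.5 to 23929 with ATRA and 51781 to 56456 with both drugs. LYZ alone was 34274 to 46320 in untreated, 136550 to 184635 with DAC, 5282 to 9402 with ATRA and 39104 to 43517 with both drugs. The rise of the sum with DAC lay mostly in LYZ. CD4 was also higher with DAC (3435 to 3969) than in untreated (2730 to 3178). FLT3 was lower with DAC (7493 to 9559) than in untreated (13870.5 to 14247), as was HOXA9 (889 to 1197 against 1497 to 1550). CD33, PTPRC and MEIS1 overlapped between untreated and DAC. The counted value of PTPRC was 5.11 to 50.1 over all groups. Whether reads shared between rows of this gene were left out was not checked, so it may be a lower limit. The B cell factors PAX5 and EBF1 were at 0 in every library, summed erythroid markers reached 15.4 normalised counts at most, and summed megakaryocyte markers were 35.8 to 56.5 without ATRA and 3.06 to 15.2 with it. Summed B cell markers reached 39.8, and NKG7 made up nearly all of the 424 to 1287 normalised counts of the T and NK cell markers. Whether cell makeup moved with any value below was not tested, and in bulk RNA fewer cells of a kind and less RNA per cell cannot be told apart.

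Values are normalised counts, which are reads divided by a size factor per library. Levels are compared between libraries, and between genes only per kilobase. Changes are log2 fold changes of normalised counts plus 1 from limma, with the standard error (SE), and the call threshold was an adjusted p of 0.01. Signed values in parentheses are such changes. DAC against untreated changed 2 of 10 members (CEBPE higher, IRF8 lower), where 7.97% of all genes tested were called. This count was 4 without DAC replicate 3, which added GFI1 and KLF4, where 13% of all genes were called in that setting. It was 1 without any of the 8 libraries on which the call of IRF8 rested, listed with that gene, where 4.78% to 7.31% of all genes were called. ATRA against untreated changed 8 of 10 (3 higher, 5 lower), where 26% of all genes were called. DAC+ATRA against untreated changed 5 of 10 (2 higher, 3 lower), where 28.9% of all genes were called. The median size of a member's change, in either direction, was 0.34 with DAC, 1.40 with ATRA and 0.64 with both drugs on the log2 scale, against 0.28, 0.40 and 0.43 over all genes tested. The median signed change of the members was 0.12, -0.41 and -0.26 in the same order, and that of all genes -0.0041, -0.04 and -0.0039.

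The groups were also compared by whether their libraries overlapped. The 3 DAC libraries did not overlap the 3 untreated ones for 4 of 10 members, where this was so for 30.4% of all genes. For ATRA it was all 10 members, where 50.7% of all genes were separated. For DAC+ATRA it was 7 members, where the share of all genes was 55.8%, so the count with both drugs is near that background.

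**Figure D2:**
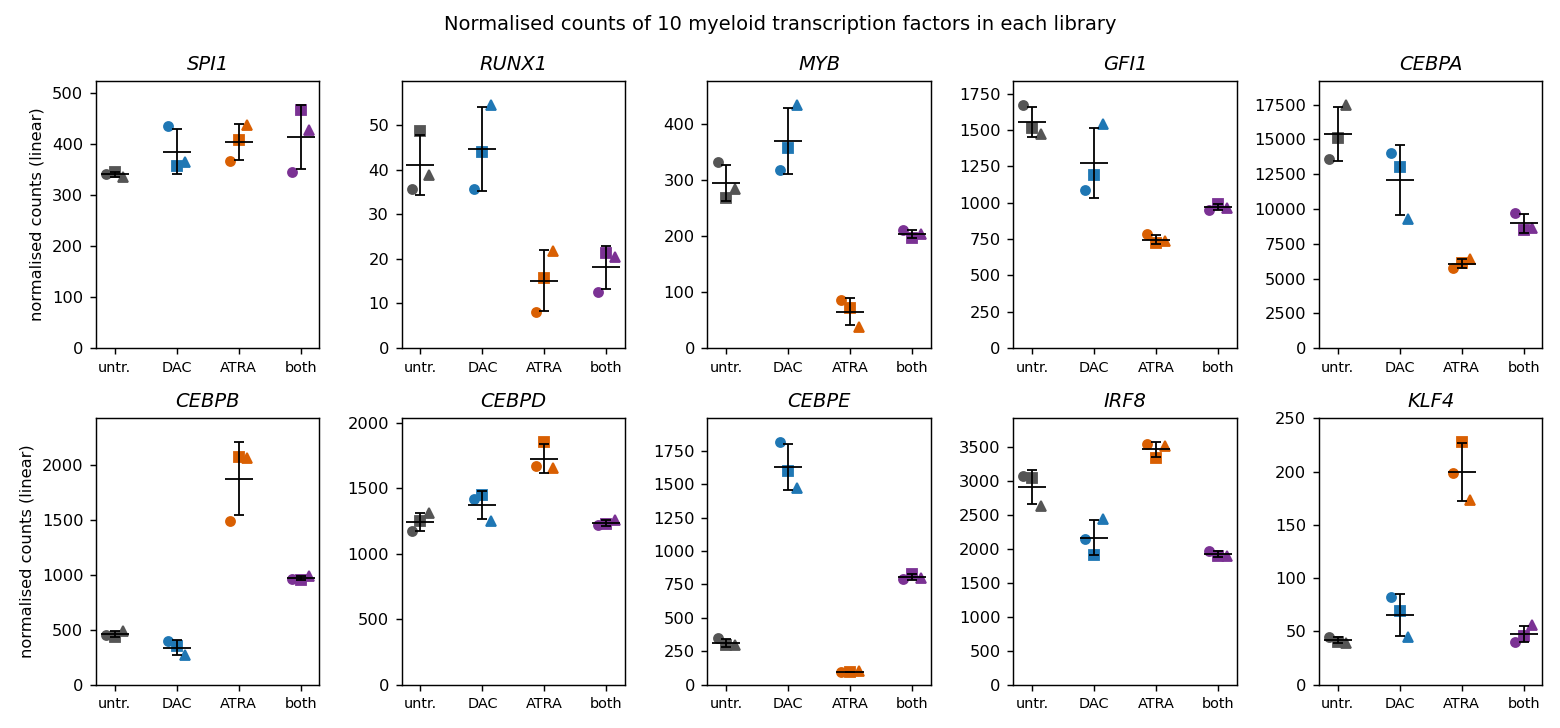
Normalised counts of the 10 members in each library, 1 panel per gene on a linear axis from 0, with untreated cells, DAC, ATRA and both drugs along the bottom. Points are libraries (circle, square and triangle for replicates 1, 2 and 3), lines the mean and bars the SD of 3, and CEBPE spans the widest range, from 94.1 to 1814.

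CEBPE, the C/EBP protein of late granulocyte maturation and of the genes of secondary granules (chr14:23117036-23120256, minus strand), moved in opposite directions with the 2 drugs. Untreated libraries held 348, 295 and 301 normalised counts, DAC 1814, 1598 and 1469, ATRA 94.1, 96.0 and 99.5 and DAC+ATRA 794, 831 and 794. No 2 groups overlapped, with DAC highest, then DAC+ATRA, untreated and ATRA. DAC raised CEBPE to 5.17 times the untreated mean (2.37, SE 0.12, limma adjusted p = 7.97e-11), a change larger in size than that of 99.05% of genes tested. ATRA lowered it to 0.307 times that mean (-1.69, SE 0.12, limma adjusted p = 8.51e-10). With both drugs it was 2.56 times the untreated mean (1.36, limma adjusted p = 2.30e-08), 0.496 times that of DAC alone (-1.01, limma adjusted p = 1.82e-06) and 8.35 times that of ATRA alone (3.05, limma adjusted p = 1.54e-12). The change that DAC made was thus present with and without ATRA. Its size differed by 0.68 between the 2 settings (95% interval 0.34 to 1.03), which did not pass the threshold in limma (adjusted p = 0.0239) and did in DESeq2 (adjusted p = 0.00604).

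CEBPB, the C/EBP protein of emergency myelopoiesis and of macrophages (chr20:50190830-50192668, plus strand), went the other way. Untreated libraries held 449, 438 and 489 normalised counts, DAC 397, 349.7 and 269, ATRA 1488, 2069 and 2059.9 and DAC+ATRA 963, 956 and 986. No groups overlapped here either, with ATRA highest, then DAC+ATRA, untreated and DAC. ATRA raised CEBPB to 4.09 times the untreated mean (2.01, SE 0.14, limma adjusted p = 1.38e-09). With both drugs it was 2.11 times that mean (1.08, limma adjusted p = 7.03e-06) and 0.517 times the ATRA mean (-0.93, limma adjusted p = 1.11e-04). Against DAC alone, DAC+ATRA was 2.86 times as high (1.53, limma adjusted p = 1.01e-07). The DAC mean was 0.739 times the untreated one, and this difference of -0.45 (95% interval -0.75 to -0.15) missed the threshold (limma adjusted p = 0.0383).

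CEBPA, which commits progenitors to the granulocyte and monocyte lineages and halts their division (chr19:33299934-33302534, minus strand), fell with ATRA, alone or with DAC. Untreated libraries held 13559, 15121 and 17452 normalised counts, DAC 14022, 13028 and 9246, ATRA 5729, 6084 and 6375 and DAC+ATRA 9732, 8514 and 8661. Every library with ATRA lay below every untreated one, and the DAC libraries overlapped the untreated ones, DAC replicate 3 being the lowest of its group. ATRA lowered CEBPA to 0.394 times the untreated mean (-1.34, SE 0.14, limma adjusted p = 2.01e-07) and DAC+ATRA to 0.583 times (-0.77, SE 0.14, limma adjusted p = 1.46e-04). For DAC the difference was -0.36 (95% interval -0.64 to -0.08, limma adjusted p = 0.0802). CEBPA was higher with both drugs than with ATRA alone (0.56, limma adjusted p = 0.0055), a call that was lost without any 1 of the 6 libraries compared (limma adjusted p from 0.0124 to 0.0347). Without DAC replicate 3, DAC+ATRA was also lower than DAC (-0.59, limma adjusted p = 2.34e-04), where the value with it was -0.41 (limma adjusted p = 0.0281).

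CEBPD, a C/EBP gene of the acute phase and inflammatory response, had the smallest change of the 4 against untreated with each treatment. Untreated libraries held 1170.4, 1245 and 1312 normalised counts, DAC 1415, 1446 and 1247, ATRA 1668, 1851 and 1651 and DAC+ATRA 1221, 1226 and 1258. The ATRA libraries lay above all others and the other 3 groups overlapped. ATRA raised it to 1.39 times the untreated mean (0.47, SE 0.10, limma adjusted p = 8.41e-04). With both drugs it was 0.716 times the ATRA mean (-0.48, limma adjusted p = 0.00169), a call lost without ATRA replicate 2 (-0.43, limma adjusted p = 0.0148) or DAC+ATRA replicate 2 (-0.47, limma adjusted p = 0.0107). Against untreated, DAC+ATRA differed by -0.01 (95% interval -0.21 to 0.20) and DAC by 0.14 (95% interval -0.07 to 0.35).

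Each C/EBP gene has 1 transcript row, so their levels can be set side by side per kilobase of exon. In untreated cells CEBPA stood at 5912 ± 753 (SD, n = 3) normalised counts per kilobase, CEBPD at 992 ± 56.4, CEBPE at 264 ± 24.6 and CEBPB at 249 ± 14.6, the last pair lying within their spread. In DAC cells CEBPE, at 1366 ± 146, had passed CEBPD at 1094 ± 85.2, and CEBPB was lowest at 184 ± 35.2. In ATRA cells CEBPB, at 1018 ± 181, lay below CEBPD at 1377 ± 88.7, and CEBPE was lowest at 81.0 ± 2.30. In DAC+ATRA cells CEBPA stood at 3448 ± 255, CEBPD at 986 ± 16.2, CEBPE at 677 ± 17.8 and CEBPB at 527 ± 8.71. The plot of levels per kilobase shows CEBPE and CEBPB far apart with DAC or ATRA alone and close together in the other groups.

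**Figure D3:**
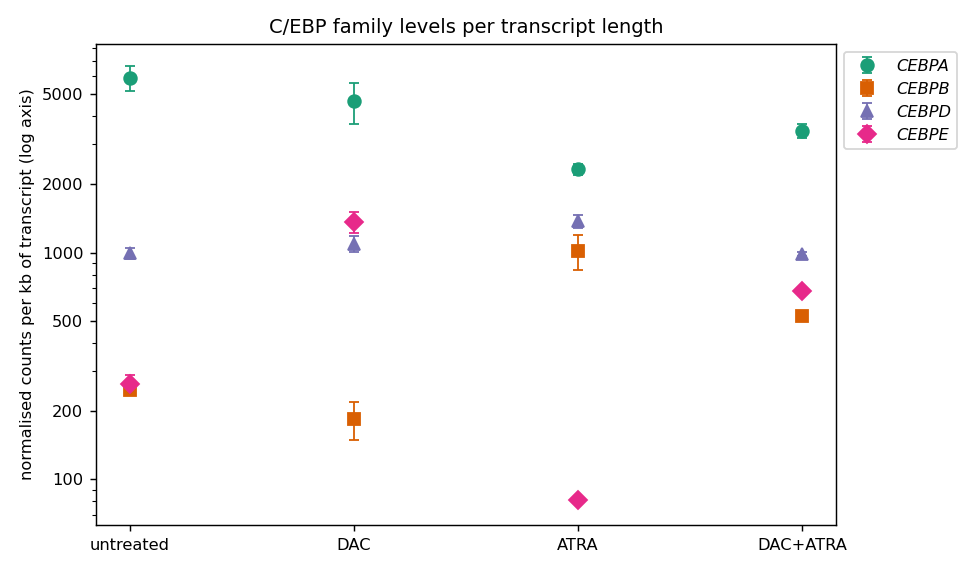
Levels of the 4 C/EBP genes per kilobase of exon in each group, on a log axis, as the mean of 3 libraries with the SD as bars. CEBPA is highest throughout, while CEBPE and CEBPB exchange places between DAC (1366 and 184) and ATRA (81.0 and 1018).

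KLF4, a zinc finger factor that drives monocyte differentiation (chr9:107484852-107490482, minus strand), rose with ATRA, and that rise was not seen when DAC was present. Untreated libraries held 45.1, 40.6 and 39.5 normalised counts, DAC 82.7, 69.0 and 44.6, ATRA 199, 228 and 173 and DAC+ATRA 40.6, 46.2 and 56.2. The ATRA libraries lay far above all others, and the other 3 groups overlapped. ATRA raised KLF4 to 4.79 times the untreated mean (2.23, SE 0.23, limma adjusted p = 2.35e-07). With both drugs KLF4 was 0.238 times the ATRA mean (-2.05, SE 0.23, limma adjusted p = 2.87e-06) and differed from untreated by 0.18 (95% interval -0.30 to 0.66). The effect of DAC with ATRA minus its effect without ATRA was -2.64 (SE 0.32, limma adjusted p = 6.24e-05), larger in size than for 99.5% of genes tested. For DAC alone the difference was 0.59 (95% interval 0.12 to 1.07, limma adjusted p = 0.0881). Without DAC replicate 3, the lowest of its group, it was 0.84 (limma adjusted p = 0.00727).

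IRF8, the interferon regulatory factor that sends progenitors towards monocytes and dendritic cells (chr16:85899116-85922606, plus strand), was lower where DAC was present. Untreated libraries held 3078, 3048 and 2633 normalised counts, DAC 2151, 1918 and 2446, ATRA 3544, 3350.1 and 3525 and DAC+ATRA 1979, 1905 and 1894. The DAC and DAC+ATRA libraries all lay below the untreated ones and the ATRA libraries above them. With both drugs IRF8 was 0.660 times the untreated mean (-0.60, SE 0.10, limma adjusted p = 1.31e-04) and 0.555 times the ATRA mean (-0.85, SE 0.10, limma adjusted p = 8.32e-06). DAC alone lowered it to 0.744 times the untreated mean (-0.43, SE 0.10, limma adjusted p = 0.00768). That last call was close to the threshold: it was lost without untreated replicate 1 or 2, DAC replicate 1 or 2, ATRA replicate 2, or DAC+ATRA replicate 1, 2 or 3 (limma adjusted p from 0.0118 to 0.0490), and when only the compared groups were fitted (0.0592). ATRA differed from untreated by 0.25 (95% interval 0.04 to 0.47, limma adjusted p = 0.0631).

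SPI1, which encodes the ETS factor PU.1 that myeloid cells depend on (chr11:47354860-47378547, minus strand), was called in no comparison. Untreated libraries held 342, 345 and 335 normalised counts, DAC 435, 356 and 365, ATRA 366, 407 and 436 and DAC+ATRA 344, 467 and 428. The untreated values lay close together and every DAC and ATRA library lay above them, and the 3 treated groups overlapped one another. SPI1 passed the threshold in none of the 7 comparisons in limma, DESeq2 or edgeR, nor an unadjusted p under 0.05 in limma (0 of 7). Its difference from untreated was 0.17 for DAC (95% interval -0.11 to 0.45), 0.24 for ATRA (95% interval -0.04 to 0.52) and 0.27 for DAC+ATRA (95% interval -0.01 to 0.55). The intervals leave room for a rise of up to 0.55 on the log2 scale.

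RUNX1, the core binding factor of definitive blood formation (chr21:34787801-36004667, minus strand), was covered by few reads and was lower with ATRA. Untreated libraries held 35.8, 48.7 and 38.9 normalised counts, DAC 35.6, 43.9 and 54.4, ATRA 8.06, 15.6 and 21.7 and DAC+ATRA 12.6, 21.4 and 20.4. All 6 libraries with ATRA lay below all 6 without it. ATRA lowered RUNX1 to 0.368 times the untreated mean (-1.47, SE 0.34, limma adjusted p = 0.00209), a call lost without untreated replicate 2 (-1.35, limma adjusted p = 0.0155) or ATRA replicate 1 (-1.10, limma adjusted p = 0.0145). DAC+ATRA was 0.406 times the DAC mean (-1.27, limma adjusted p = 0.00858), which was lost without any 1 of 9 libraries, namely those of untreated and of DAC+ATRA, DAC replicate 2 or 3, or ATRA replicate 2 (limma adjusted p from 0.0116 to 0.0478). Against untreated, DAC+ATRA differed by -1.16 (95% interval -1.88 to -0.44, limma adjusted p = 0.0107). It passed the threshold without DAC replicate 3, ATRA replicate 1 or ATRA replicate 3 (limma adjusted p from 0.00444 to 0.00803), in DESeq2 (0.00516) and in edgeR (0.00902).

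MYB, which holds progenitors in division and blocks their maturation (chr6:135181308-135219173, plus strand), fell steeply with ATRA and less when DAC was added. Untreated libraries held 331, 268 and 285 normalised counts, DAC 318, 358 and 433, ATRA 86.0, 70.7 and 38.5 and DAC+ATRA 211, 197 and 204. The ATRA libraries lay below all others, the DAC+ATRA libraries between them and the untreated ones, and the DAC libraries overlapped the untreated ones. ATRA lowered MYB to 0.221 times the untreated mean (-2.23, SE 0.22, limma adjusted p = 1.09e-07). With both drugs it was 3.14 times the ATRA mean (1.71, SE 0.22, limma adjusted p = 1.30e-05), and its difference of -0.52 from untreated (95% interval -0.98 to -0.07) missed the threshold (limma adjusted p = 0.0626) unless only those 2 groups were fitted (limma adjusted p = 0.00150). DAC+ATRA was lower than DAC (-0.84, limma adjusted p = 0.00606), a call lost without DAC replicate 2 or 3 or any 1 DAC+ATRA library (limma adjusted p from 0.0169 to 0.0258). The effect of DAC differed with and without ATRA by 1.39 (limma adjusted p = 0.0128), which passed without DAC replicate 3 (1.51, limma adjusted p = 0.00378) or ATRA replicate 1 (1.63, limma adjusted p = 0.00226), in DESeq2 (adjusted p = 2.94e-04), in edgeR (0.00685), with total-count scaling (limma adjusted p = 0.00975) and with a pseudocount of 5 (limma adjusted p = 0.00999).

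GFI1, a repressor that supports granulocytes and holds back monocyte genes (chr1:92473043-92486925, minus strand), was lower with ATRA as well. Untreated libraries held 1669.7, 1512 and 1475 normalised counts, DAC 1084, 1187 and 1545, ATRA 785, 722 and 734 and DAC+ATRA 952, 989 and 966. The ATRA libraries were lowest, the DAC+ATRA libraries next, and the DAC libraries overlapped the untreated ones through DAC replicate 3. ATRA lowered GFI1 to 0.481 times the untreated mean (-1.05, SE 0.12, limma adjusted p = 8.24e-07) and DAC+ATRA to 0.624 times (-0.68, SE 0.12, limma adjusted p = 1.46e-04). DAC differed by -0.30 (95% interval -0.55 to -0.05, limma adjusted p = 0.0962). Without DAC replicate 3 that difference was called (-0.45, limma adjusted p = 0.00253), as was the difference of DAC+ATRA from ATRA (0.38, limma adjusted p = 0.00336, against 0.0300 with it). DAC+ATRA against DAC, -0.38 (limma adjusted p = 0.0227), was called without DAC replicate 1 (-0.48, limma adjusted p = 0.00513).

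**Figure D4:**
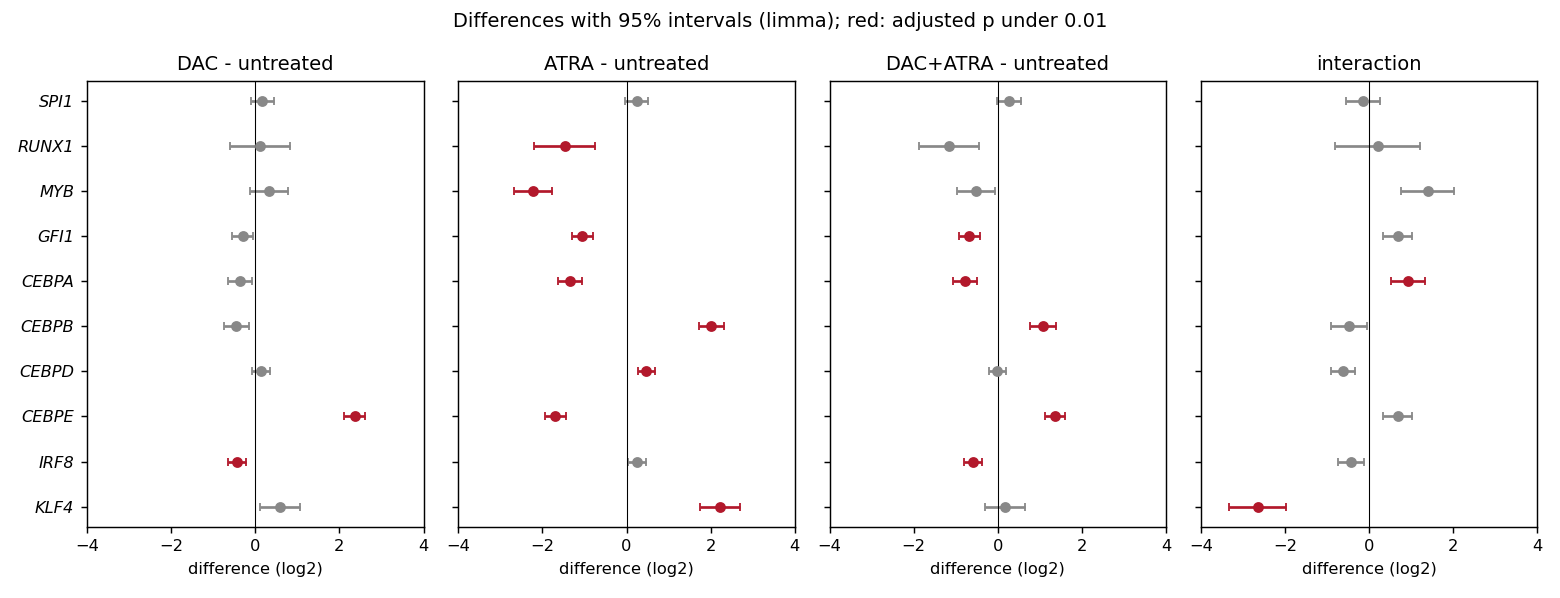
Log2 fold changes of the 10 members in DAC, ATRA and DAC+ATRA against untreated, and in the fourth panel the effect of DAC with ATRA minus that without it, with bars for the 95% interval and red for an adjusted p under 0.01. CEBPE is the member with the largest rise with DAC (2.37) and falls with ATRA (-1.69), while CEBPB (2.01) and KLF4 (2.23) rise and MYB (-2.23) falls with ATRA.

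Comparisons between the treated groups set the drugs against each other directly. ATRA against DAC changed 8 of 10 members (3 higher, 5 lower), where 29.4% of all genes were called. CEBPB (2.47), KLF4 (1.63) and IRF8 (0.68) were higher with ATRA, and CEBPE (-4.06), MYB (-2.55), RUNX1 (-1.58), CEBPA (-0.98) and GFI1 (-0.75) were higher with DAC. DAC+ATRA against ATRA changed 7 of 10 (3 higher, 4 lower), where 11.9% of all genes were called. CEBPE, MYB and CEBPA were higher in the combination than with ATRA, and KLF4, CEBPB, IRF8 and CEBPD were lower. DAC+ATRA against DAC changed 4 of 10 (1 higher, 3 lower), where 18.8% of all genes were called. CEBPB was the member that was higher and CEBPE, MYB and RUNX1 those that were lower. The count was 2 without DAC replicate 2 or without any 1 library of DAC+ATRA, where MYB and RUNX1 were lost and 13.7% to 15.7% of all genes were called.

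The test of whether the effect of DAC depended on ATRA called 2 of 10 members, CEBPA and KLF4, where 1.6% of all genes were called. For CEBPA the effect of DAC with ATRA exceeded that without it by 0.92 (95% interval 0.52 to 1.33, limma adjusted p = 0.00814). This call was lost without untreated replicate 2 or 3, or without any 1 library of ATRA or DAC+ATRA (limma adjusted p from 0.0146 to 0.0330). The call of KLF4 was kept when each library was left out in turn. Without DAC replicate 3 there were 5 members called, GFI1 (0.83, limma adjusted p = 4.94e-04), CEBPD (-0.68, limma adjusted p = 0.00246) and MYB being the others, where 2.46% of all genes were called in that setting. At an unadjusted p under 0.05 in limma there were 8 members, all but SPI1 and RUNX1, where 14.8% of all genes passed. DESeq2 called 6 members, where it called 3.05% of all genes.

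Counting was done per transcript, and reads that fit more than 1 listed row of a gene appear not to have been counted. Of the 33 member rows found in GENCODE release 44, 12 shared all of their exonic bases with other such rows of the same gene. Only 2 of these 12 held any read, and the highest value was 2.25 normalised counts. The MYB row outside that release was not checked, nor was its overlap with the other MYB rows. The values of SPI1, IRF8, GFI1, KLF4, RUNX1 and MYB, which have several rows, are therefore lower limits, whereas CEBPA, CEBPB, CEBPD and CEBPE have 1 row each. A change in a gene with several rows may also hold a shift between its transcripts, and whether it does was not tested. Values of marker and list genes with several rows may be lower limits too, which was not checked.

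For RUNX1 nearly all counted reads were in rows that have only a short stretch of their own. RUNX1-201, which starts at the distal promoter, had 255 bases found in no other row. RUNX1-203, which starts at the proximal one, had 418. RUNX1-202 begins at the same base as RUNX1-203, and RUNX1-207 begins near RUNX1-201. Neither of these has an exonic base of its own, and almost no reads were counted for them. The values below thus do not stand for all transcripts from a promoter, and promoter use was not tested. RUNX1-201 held 24.5 ± 2.44 (SD, n = 3) normalised counts in untreated, 27.8 ± 3.37 with DAC, 4.59 ± 1.31 with ATRA and 5.16 ± 1.81 with both drugs. RUNX1-203 held 16.3 ± 5.14, 16.9 ± 7.18, 10.5 ± 7.44 and 12.6 ± 6.37. RUNX1-201 was lower in every library with ATRA than in any without it, while RUNX1-203 overlapped between all groups. The share of RUNX1-201 in the summed value was 59.7% in untreated, 62.2% with DAC, 30.3% with ATRA and 28.5% with both drugs, on few reads. The CpG window of RUNX1 given above lies at the proximal start.

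GFI1 and SPI1 each had the same main row in every group. GFI1-201 held 84.2% of the GFI1 value in untreated, 83.8% with DAC, 79.2% with ATRA and 74.0% with both drugs. GFI1-203, with a start inside the gene, held 7.66%, 7.67%, 13.6% and 15.1% in the same order, and its level was 119 ± 10.7 normalised counts in untreated and 146 ± 13.6 in DAC+ATRA while GFI1-201 went from 1307 ± 89.1 to 717 ± 7.09. GFI1-202 reached 10.9% at most. SPI1-202 held 59.2% to 65.9% of the SPI1 value by group, SPI1-201 26.1% to 30.0% and SPI1-204 7.97% to 11.2%. IRF8-201 held 93.3% to 95.5% of the IRF8 value, and all KLF4 reads were in KLF4-201. For MYB, a row that is not in GENCODE release 44 held 54.3% in untreated and 58.3% in ATRA, MYB-206 held 25.4% and 18.8%, and MYB-221 12.5% and 12.3%.

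**Figure D5:**
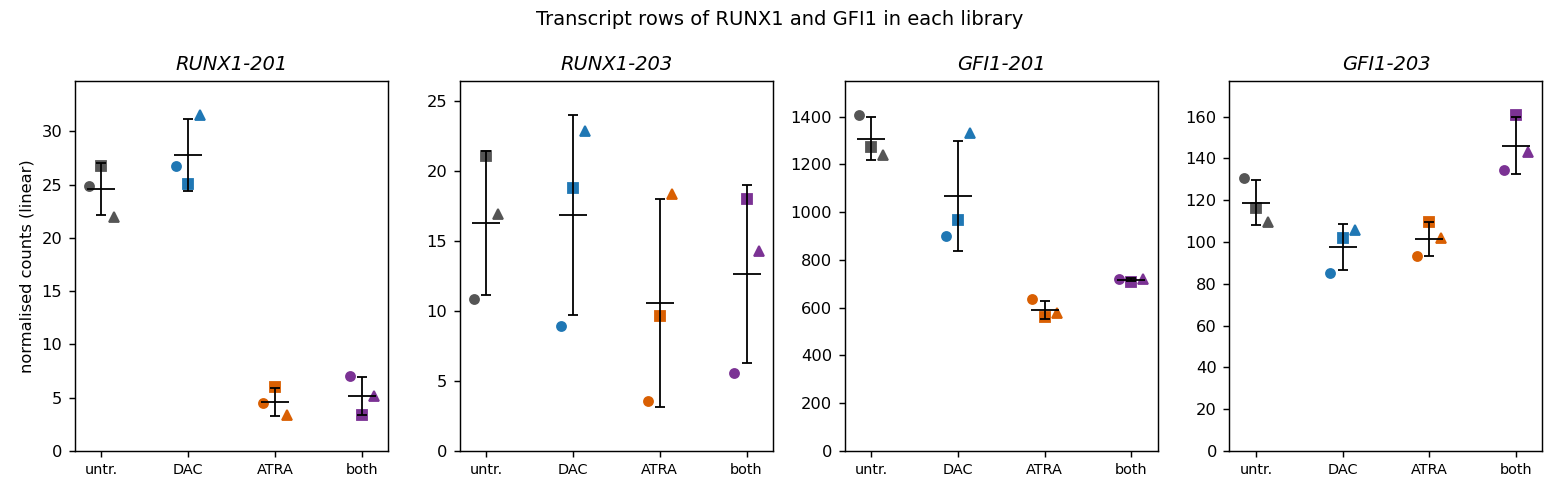
Normalised counts of 2 transcript rows each of RUNX1 and GFI1 in each library, on linear axes from 0, with points for libraries, lines for the mean and bars for the SD of 3. RUNX1-201 falls from a mean of 24.5 in untreated to 4.59 in ATRA while RUNX1-203 (16.3 and 10.5) overlaps between the groups.

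The members were set beside 9 lists of relatives, partners and textbook targets, described by counts beside the 7.97%, 26% and 28.9% of all genes called. Among C/EBP relatives and dimer partners, 9 of 10 were tested. None was called for DAC in limma, DESeq2 or edgeR, with 2 at an unadjusted p under 0.05 in limma, which 28.7% of all genes passed for DAC. There were 4 called for ATRA (2 higher, 2 lower) and 2 for DAC+ATRA. BATF2, an interferon-induced leucine zipper gene, was 0.887 normalised counts in untreated, 0.424 with DAC, 17.1 with ATRA and 14.3 with both drugs, too low at baseline for a fold. BATF3 fell with ATRA (-1.71, limma adjusted p = 0.00794) and ATF3, a stress response factor, with DAC+ATRA (-2.05, limma adjusted p = 0.00179). Among ETS relatives of SPI1, 12 of 14 were tested, with none called for DAC in limma, DESeq2 or edgeR (2 at an unadjusted p under 0.05 in limma), 3 for ATRA (2 higher, 1 lower) and 2 higher for DAC+ATRA. SPIB, the closest relative of SPI1, rose from 3.52 normalised counts in untreated to 60.1 with ATRA and 33.5 with both drugs (3.78 and 2.96), ELK3 rose as well (1.79 and 0.97), and ETV6 fell with ATRA (-0.53).

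IRF relatives were called higher with ATRA in 3 of 6 tested genes and with DAC+ATRA in 2. IRF1, the interferon-induced activator, went from 126 normalised counts in untreated to 1139 with ATRA and 791 with both drugs (3.16 and 2.65), and IRF4 from 9.84 to 138 and 90.9 (3.69 and 3.10). IRF9, a part of the complex that carries type I interferon signals, fell with DAC to 44.1 from 117 normalised counts (-1.41, limma adjusted p = 6.92e-05). Of the RUNX relatives and cofactors, none of 5 was called with DAC in limma, DESeq2 or edgeR (1 at an unadjusted p under 0.05 in limma), and 1 was called with either ATRA or DAC+ATRA, namely RUNX2, at 19.7 normalised counts in untreated, 66.1 in ATRA and 42.2 in DAC+ATRA. RUNX2 thus rose (1.73 and 1.09) where RUNX1 was lower.

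KLF and EGR relatives of KLF4, all 14 of which were tested, were called in a single direction with each drug alone. DAC lowered 5 and raised none (median -0.50), ATRA raised 8 and lowered none (median 1.01), and DAC+ATRA raised 1 and lowered 4 (median -0.26). EGR3, an early response zinc finger gene, was 110 normalised counts in untreated, 14.9 with DAC, 2355 with ATRA and 32.9 with both drugs. KLF10, a gene induced by TGF-beta, was 103, 56.1, 459 and 33.2 in the same order. The effect of DAC was lower with ATRA than without it for 4 of the 14 (KLF10, EGR3, KLF2 and KLF6), where 1.6% of all genes were called. It was -2.82 for KLF10 (limma adjusted p = 2.37e-04) and -3.21 for EGR3 (limma adjusted p = 2.49e-04). This interaction was called for 1 of 9 C/EBP relatives, 2 of 16 monocyte and macrophage factors, 2 of 12 stem and progenitor factors and 2 of 26 textbook targets. In the ETS, IRF and RUNX lists and that of GFI1 corepressors and MYB cofactors, no gene was called for it. EGR2 was 8.54 normalised counts in untreated, 1.21 with DAC, 94.5 with ATRA and 3.42 with both drugs.

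Corepressors of GFI1 and cofactors of MYB were rarely called. Of 10 tested, none was called for DAC in limma, DESeq2 or edgeR (2 at an unadjusted p under 0.05 in limma), and 1 each for ATRA and DAC+ATRA. MYBL2, a MYB relative of dividing cells, fell with ATRA (-0.88, limma adjusted p = 0.00321), and HDAC1 rose with DAC+ATRA (0.44, limma adjusted p = 0.00152). Other monocyte and macrophage transcription factors were called in 3 of 16 tested genes with DAC (all lower), 7 with ATRA (5 higher, 2 lower) and 8 with DAC+ATRA (4 each way). FOS, a partner in AP-1, was 464 normalised counts in untreated, 378 with DAC, 2358 with ATRA and 753 with both drugs, and the effect of DAC was lower with ATRA than without it (-1.31, limma adjusted p = 0.00146). FOSB, another AP-1 gene, was at 22.4, 21.0, 447 and 97.5 normalised counts in the same order and the same difference was -2.06 (limma adjusted p = 0.00555). NR4A1 fell with DAC+ATRA (-2.35, limma adjusted p = 5.79e-04).

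Stem and progenitor transcription factors were called in 1 of 12 tested genes with DAC (HOXA9, lower), 10 with ATRA (3 higher, 7 lower) and 5 with DAC+ATRA (1 higher, 4 lower). GATA2, a factor of stem cells and early progenitors, went from 579 normalised counts in untreated and 452 in DAC to 17.8 in ATRA and 32.0 in DAC+ATRA (-5.09 and -4.12 against untreated for the last pair). BCL11A fell likewise (-2.35 and -2.03), whereas SOX4 rose from 579 normalised counts to 2573 and 2769 (2.15 and 2.26).

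Textbook targets of the members were called in 10 of 26 tested genes with DAC, all higher (median 0.46), in 16 with ATRA (9 higher, 7 lower, median 0.19) and in 17 with DAC+ATRA (12 higher, 5 lower, median 0.61). MPO, the myeloperoxidase of azurophil granules, went from 1513 normalised counts in untreated to 22033 with DAC, 805 with ATRA and 10424 with both drugs (3.83, -0.95 and 2.78). MPO thus shared with CEBPE its order of groups. CTSG, cathepsin G, rose with DAC (0.91) and fell with ATRA (-4.03) and DAC+ATRA (-2.71). MMP9, a gelatinase of mature granulocytes, was 14.3 normalised counts in untreated, 379 with DAC, 604 with ATRA and 2866 with both drugs, so it rose with each drug and most with both. Its effect of DAC was smaller with ATRA than without it (-2.39, limma adjusted p = 8.61e-06).

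Genes that followed a member most closely were found by the root mean square difference of their log2 values over the 12 libraries, after each gene was centred on its mean. This is a description of likeness only. CEBPE was followed most closely by MAGEB2, a cancer/testis antigen gene (0.38, at 26.0 normalised counts in untreated, 104 with DAC, 5.93 with ATRA and 77.5 with both drugs), and then by POU4F1, a neural POU factor gene (0.39). KLF4 was followed by C9orf72 (0.35) and PLXNC1, a semaphorin receptor gene (0.36), and CEBPB by HMX3 (0.16), a homeobox gene at 637 normalised counts in untreated, 409 with DAC, 2509 with ATRA and 1432 with both drugs, and PPP2R5B (0.19). MYB was followed by CGREF1 (0.21) and KCTD15 (0.25), CEBPA by CAMK1 (0.16) and SMIM3 (0.18), and RUNX1 by SLC39A10 (0.29) and MXRA7 (0.30). For IRF8 the nearest was GCC2 (0.10) and then BMI1 (0.11), a Polycomb gene at 6949.7 normalised counts in untreated, 4953 with DAC, 7713 with ATRA and 4489.6 with both drugs. GFI1 was followed by NET1 (0.11) and MTO1 (0.12), and CEBPD by YWHAZ (0.11) and RBM5 (0.12).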

How the data were processed

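Total RNA was depleted of ribosomal RNA and sequenced as stranded paired-end libraries. Per the study's methods, the authors checked reads with FastQC, used STAR for alignment to hg38 and htseq-count for counting, and tested with DESeq2. The annotation release and the settings of the counting are not given in the sources used here. What the authors deposited is a normalised signal and no raw count: in all 12 libraries 100% of values came out as whole reads (tolerance 0.01 reads) after division by the value of 1 read. The CTRL columns were read as untreated. Rows were summed per symbol, and 88.9% of 100502 rows matched GENCODE release 44.

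Groups were compared with limma (3.58.1, R 4.3.3; lmFit and eBayes with trend) on log2(normalised count + 1), fitted to all 12 libraries with a coefficient per group. Protein-coding genes entered if 3 or more libraries held 10 or more normalised counts, and p-values were adjusted by Benjamini-Hochberg over all 10642 genes within each comparison. A fold change on this scale understates that of low genes. Intervals are 95%. The interaction is the effect of DAC with ATRA minus that without it. The fit was tested on simulated data with the same dispersion for every gene. Changes were placed only in genes above the untreated levels of RUNX1 and KLF4, so that test does not cover low or more variable genes. As alternatives, the recovered reads were tested with DESeq2 (1.42.0) and edgeR (4.0.16), which called 1211 and 953 genes for DAC, 3159 and 2967 for ATRA and 3391 and 3239 for DAC+ATRA (limma 848, 2772 and 3077). Further settings were other scalings, pseudocounts and filters, all symbols, only the compared groups, a replicate block, the highest transcript row and leaving out each library.

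The members and the lists were chosen with earlier results of these data known, and support for a pattern seen before is not independent. Named were all members, their transcript rows with at least 10% of the value in a group, up to 3 genes per list with the largest called change against untreated, and the 2 genes nearest to each called member. RNA-seq of MOLM-13 was used here, and other assays of the study were not analysed here.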

Additional observations from a re-analysis of the deposited data

Results flagged for a closer look

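The effect of DAC differed with and without ATRA for 2 members by the interaction term in limma. For CEBPA it was 0.92 higher with ATRA (log2, adjusted p = 0.00814): DAC+ATRA libraries all lay above ATRA libraries (8969 ± 665 against 6063 ± 324 normalised counts, SD, n = 3), while DAC libraries overlapped untreated ones (12099 ± 2520 against 15377 ± 1959). For KLF4 it was -2.64 (log2, limma adjusted p = 6.24e-05): DAC+ATRA libraries all lay below ATRA libraries (47.6 ± 7.89 against 199.9 ± 27.3), while DAC libraries, at 65.4 ± 19.3, overlapped untreated ones, at 41.7 ± 2.96. The call of CEBPA was lost in 13 of 23 alternatives and that of KLF4 in 0 of 23. DAC libraries were shallower than untreated ones. Whether depth had a part in either value was not tested. Groups of 3 libraries are too small to test for single outlying libraries.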

How the results depend on the processing

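The 10 members gave 70 values over 7 comparisons, 36 of them called, and 1663 values under alternatives. Direction and call were the same in 1567 of these, 55 lost a call, 32 gained one and 9 turned sign, none of them called. Part of this agreement was fixed in advance. Another filter, all symbols, only the compared groups or a replicate block cannot alter a fold change, only its p-value. The same holds for leaving out a library of a group that is not compared. For DAC against untreated, 2 members were called. The count was 1 with no filter (4.93% of all genes called), with only the compared groups (3.49%) or with the replicate block (6.97%). It was 1 to 4 when single libraries were left out, where 4.78% to 13% of all genes were called. For DAC+ATRA against DAC it was 4, with 2 under no filter (12.7% of all genes) and 2 to 5 without single libraries (13.7% to 19.2%). For the interaction it was 2, with 6 in DESeq2 (3.05% of all genes) and 6 at a limma adjusted p under 0.05 (3.63%). It was 1 with TMM factors in limma, a pseudocount of 0.1, no filter, all symbols or the replicate block (0.937% to 1.66%). Without single libraries it was 1 to 5 (0.996% to 2.46%), highest without DAC replicate 3. The other 4 counts moved by less than 1.5 times. When single libraries were left out, they were 7 to 8 for ATRA (20% to 30.7% of all genes) and 5 to 6 for DAC+ATRA (22.2% to 34.2%). In the same settings, DAC+ATRA against ATRA gave 5 to 8 (7.7% to 16.7%) and ATRA against DAC 8 (23% to 31%). The signs that turned, with the range over single libraries left out, were those of SPI1 in DAC+ATRA against ATRA (-0.067 to 0.15, with -0.040 without ATRA replicate 1 and -0.0042 without DAC+ATRA replicate 3), CEBPD in DAC+ATRA against untreated (-0.050 to 0.032, with 7.6e-04 without DAC+ATRA replicate 1), RUNX1 in DAC against untreated (-0.043 to 0.26), in DAC+ATRA against ATRA (-0.058 to 0.61) and in the interaction (-0.16 to 0.50, and -0.048 with the highest transcript row). The cause was not tested. RUNX1 had no value with a minimum of 50 normalised counts, and a fit of only the compared groups does not apply to the interaction.

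No shared effect of the replicate number was seen: over 18 pairs with the same number the correlation of deviations ran from -0.26 to 0.11, with 2 over 0.1, and 5 of 12 libraries correlated best with their own number. With 3 libraries per group this cannot show whether libraries of the same number were handled together. With the replicate block, members called numbered 1 for DAC (6.97% of all genes called), 8 for ATRA (24.2%) and 6 for DAC+ATRA (26.6%). They numbered 4 for DAC+ATRA against DAC (17.2%) and 6 for DAC+ATRA against ATRA (10.7%). For ATRA against DAC there were 8 (27.6%) and for the interaction 1 (1.32%). Of 1566 counts of the 9 lists under alternatives, 1438 stayed within 1.5 times the main count. RUNX1 rests on 9 to 62 reads per library and KLF4 on 29 to 306, and the part of depth in their values was not tested.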
